A study of Mus musculus with 2 samples.

Results

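Prox1, Lyve1, Pdpn, Ccl21a, Mmrn1, Reln and Nts are 7 genes that mark lymphatic endothelium, and their transcripts were followed through 2 single-cell libraries of sorted mouse liver endothelium. They were chosen by symbol and are 7 of the 31053 genes of the count matrices, where they take up 8 rows because Ccl21a is listed under 2 identifiers. Cells negative for DAPI and CD45 and positive for CD31, the endothelial adhesion molecule encoded by Pecam1, had been sorted from the livers of adult C57BL/6 mice. The sph/+ library came from 1 mouse heterozygous for the sphinx (sph) allele of Gimap5, and the sph/sph library from 1 homozygous mouse. Both mice therefore carried the mutant allele, and no wild-type library was analysed here. Because each genotype is 1 mouse and 1 library, no test was made, library and genotype cannot be told apart, and every difference below is between these libraries.

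Lymphatic endothelial cells line the vessels that drain tissue fluid, and their identity is set by the transcription factor Prox1. Lyve1 is a hyaluronan receptor that, in liver, is made by liver sinusoidal endothelial cells (LSECs) as well as by lymphatic capillaries, so alone it does not separate the cell types there. Pdpn is a surface glycoprotein that binds the platelet receptor encoded by Clec1b, Ccl21a is a chemokine that draws cells bearing the receptor Ccr7 into lymphatic vessels, Mmrn1 is a secreted multimerin, Reln is a secreted matrix glycoprotein that is read by the receptors Vldlr and Lrp8, and Nts is the precursor of the peptide neurotensin.

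The matrices hold counts of unique molecular identifiers (UMIs), each standing for 1 captured transcript. Their barcodes end in 1 of 2 suffixes, and the same cell barcode sequence was nearly always present with both: 6391 sequences in sph/+, out of 6409 with suffix 1 and 6727 with suffix 2, and 7729 in sph/sph, out of 7739 and 8647. The counts of such a pair were almost equal. Their squared difference over their sum, which is about 1 for independent counts of the same cell, was 0.479 in sph/+ and 0.614 in sph/sph, against 7.44 and 14.4 when sequences were mismatched. Each pair was therefore taken as 1 cell listed with 2 counts, and the copy with suffix 2 was used, which is 33060506 UMIs in sph/+ (median 4491 per barcode) and 36105901 in sph/sph (median 3466). The labels do not say what the suffixes stand for. After filtering, 5784 sph/+ and 6135 sph/sph cells were kept, of which 5422 and 5839 were endothelial-like. Levels are given as CPM, a gene's UMIs scaled to the same total of UMIs in every group. Intervals in brackets are 95% exact Poisson intervals for levels and 95% Clopper-Pearson intervals for shares of cells. They cover counting error only, and a count of 0 is given the level that 3 counts would have.

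The genes lie apart from each other in the genome (GRCm38, GENCODE M21). Prox1 is on chromosome 1 from 190118035 to 190170714, Lyve1 on chromosome 7 from 110850607 to 110863239, and Mmrn1 on chromosome 6 from 60924976 to 60989378. Reln is on chromosome 5 from 21884454 to 22344702, and Nts on chromosome 10 from 102481756 to 102490486. Pdpn and Ccl21a share chromosome 4, from 143267431 to 143299564 and from 42772860 to 42773993. Ccl21a has near copies there: 80.6% of the 31-base words of its annotated transcripts also occur in Gm21541, and 36.9% in Ccl21b. Its counts are uncertain to that extent, although over every deposited barcode, both copies counted, Gm21541 drew 4 UMIs against 292 for Ccl21a in the heterozygous library and 88 against 11980 in the homozygous one. Ccl21b drew 0 in each. No 31-base word of Prox1, Lyve1, Mmrn1 or Nts occurs in another gene.

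The bases upstream of Nts, Ccl21a and Pdpn are shown because the levels of these genes parted most among the lymphatic-type cells described below. Each is given 5′ to 3′ on the strand of its gene, from RefSeq on GRCm38.p6, ending next to the annotated transcript, with letters that match a searched motif in capitals.
Nts, chr10:102490487-102490668, minus strand: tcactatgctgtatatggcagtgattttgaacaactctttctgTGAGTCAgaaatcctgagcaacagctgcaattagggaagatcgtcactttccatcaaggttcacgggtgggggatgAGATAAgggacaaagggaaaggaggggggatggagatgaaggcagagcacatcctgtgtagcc
Ccl21a, chr4:42773994-42774241, minus strand: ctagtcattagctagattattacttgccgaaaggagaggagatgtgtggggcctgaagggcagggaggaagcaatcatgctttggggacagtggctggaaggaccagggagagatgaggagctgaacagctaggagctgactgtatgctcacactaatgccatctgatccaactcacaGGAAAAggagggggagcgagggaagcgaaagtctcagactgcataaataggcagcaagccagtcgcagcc
Pdpn, chr4:143299565-143299814, minus strand: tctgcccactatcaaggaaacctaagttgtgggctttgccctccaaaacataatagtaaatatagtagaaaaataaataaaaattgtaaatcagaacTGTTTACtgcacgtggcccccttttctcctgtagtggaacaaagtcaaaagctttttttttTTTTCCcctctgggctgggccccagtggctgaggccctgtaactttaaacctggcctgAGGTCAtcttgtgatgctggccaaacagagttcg
The motifs searched on both strands of the 250 bases before each start were the AP-1 site TGANTCA, the cAMP response element TGACGTCA, the GATA site AGATAA, the SOX site AACAAT, the FOX site TGTTTAC, the nuclear receptor core site AGGTCA, the NFAT site GGAAAA and the TATA box TATAAA. Nts had an AP-1 match, TGAGTCA, 207 bases before its start and a GATA match 131 bases before it, and such matches stand in 6.75% and 9.99% of the windows of all 32851 promoters. The Nts distances are counted from base 102490418, which lies inside the annotated gene, so the printed stretch ends before that base. Ccl21a had 1 match, to the NFAT letters, 72 bases before its start, found in 20.4% of windows. Pdpn had a FOX match at 153 bases (3.17% of windows), a nuclear receptor core site at 34 bases (4607 of the 32851 windows) and an NFAT match at 92 bases. No searched motif was matched in all 3 windows, and no matches in them overlapped. Of the other members with a promoter entry, Reln had no match, Prox1 had an NFAT and a TATA match at 1 of its 2 starts and none at the other, and Mmrn1 had a SOX and 2 NFAT matches. The start used for Mmrn1, base 60944317, lies inside the annotated gene, so its window is not upstream of that gene.

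Cells that carried at least 5 Lyve1 and at least 2 Mmrn1 UMIs, called gated cells from here, were almost absent from sph/+ and common in sph/sph. In sph/+ 4 of 5784 kept cells met both conditions (0.0692%, 0.0188 to 0.177), and in sph/sph 507 of 6135 did (8.26%, 7.59 to 8.98). The gate counts UMIs, so it admits deep cells more easily, and the gated sph/sph cells were deep: their median was 10562 UMIs and 3436 genes, against 3868.5 UMIs and 1853 genes in the other endothelial-like sph/sph cells. With every cell thinned to 2000 UMIs, 3 of 5574 sph/+ cells and 216 of 5630 sph/sph cells still met the gate. Clustering had been done without the 7 genes, and it put 498 of the gated sph/sph cells into 1 cluster, called lymphatic-like, led by Fgl2, Mmrn1, H19, Prss23, Nts and Ccl21a. The other gated sph/sph cells were 5 cycling endothelial-like, 3 erythroid-marked and 1 macrophage-marked cells, and the levels below use the 503 endothelial-like ones. Of the 4 gated sph/+ cells, 3 fell into the same lymphatic-like cluster and 1 was LSEC-like.

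**Figure D1:**
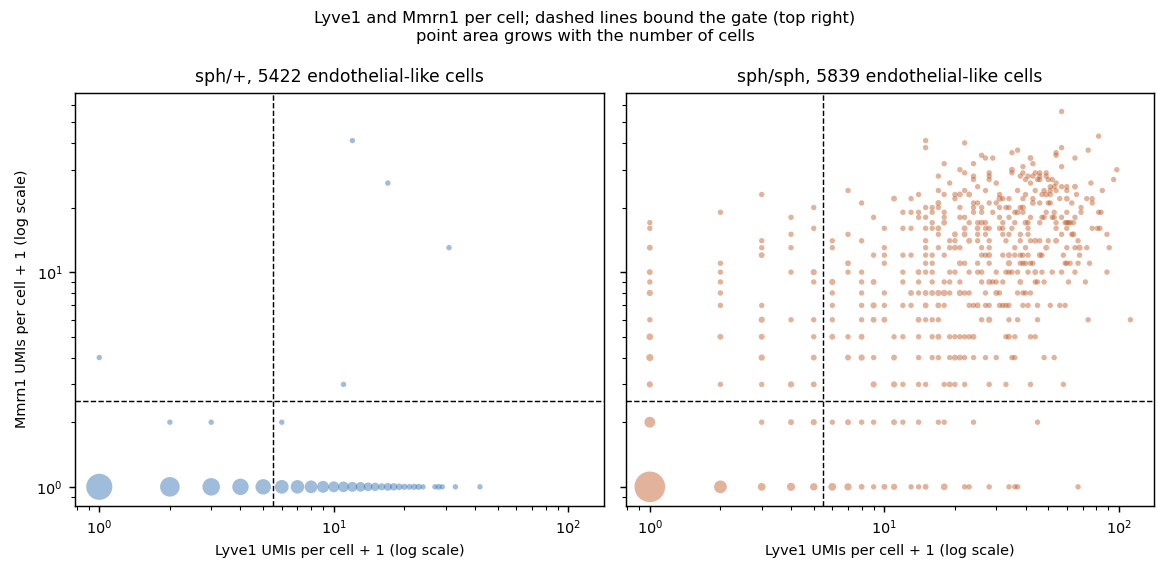
Lyve1 (horizontal) and Mmrn1 (vertical) UMIs per endothelial-like cell, 1 added, on log axes, for sph/+ (left) and sph/sph (right), with point area growing with the number of cells. In sph/+ Lyve1 runs up to 41 UMIs with Mmrn1 at 0 in nearly every cell and 4 cells lie in the gate, whereas in sph/sph 503 cells lie in it.

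In the heterozygous LSECs, 5312 ungated cells, Lyve1 was the 1 member that was plainly present. It stood at 427 CPM (419 to 435), was found in 52.0% of cells (50.6 to 53.3), and this class held 90.4% of all Lyve1 UMIs of the kept sph/+ cells. Prox1 was at 2.76 CPM (2.15 to 3.48), Reln at 1.42 CPM (0.993 to 1.96) and Nts at 1.93 CPM (1.43 to 2.55). The remaining members were close to nothing, with 3 Mmrn1 UMIs, 2 Ccl21a UMIs and 0 Pdpn UMIs, the last allowing up to 0.118 CPM. No LSEC-like sph/+ cell outside the gate carried 3 or more of the 5 members that the gate does not use (Prox1, Pdpn, Ccl21a, Reln and Nts), and 98.0% carried none.

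The share for Lyve1 stands beside 40% of the 50 hepatocyte-marked sph/+ cells (28.3% against 39.0% at 2000 UMIs per cell). Those cells are no blank. The cluster that holds 44 of them, with 183 sph/sph cells, carried all 13 pan-endothelial and 3 of 12 LSEC markers. The part of free RNA in the Lyve1 share of LSECs was not tested, and that share differed widely between the LSEC clusters.

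Lyve1 was uneven along the 5 heterozygous LSEC clusters of at least 50 cells. It was highest in the cluster led by Aass, Chst2 and Fcgr2b, at 672 CPM (654 to 690), and in the deeper cluster led by Fcgr2b, Bmp2 and Maf, at 603 CPM (580 to 626). The cluster led by Wnt2, Kit and Rspo3, genes of the central vein side of the lobule, had 284 CPM (270 to 298). The cluster led by Msr1 and Ntn4, genes of the portal side, had 147 CPM (137 to 157), and the cluster led by Nrg1 and Adgrg6 had 57.9 CPM (44.8 to 73.7). No neighbouring pair in this order had overlapping counting intervals, and the share of cells with a Lyve1 UMI ran in a like way, from 83.4% and 70.3% in the first pair to 13.9% in the last. Prox1 did not follow this order, lying between 1.53 and 3.50 CPM in all 5. The Nts UMIs of LSECs were concentrated in the Wnt2-led cluster, which held 48 of 49, in 0.327% of its 1223 cells.

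**Figure D2:**
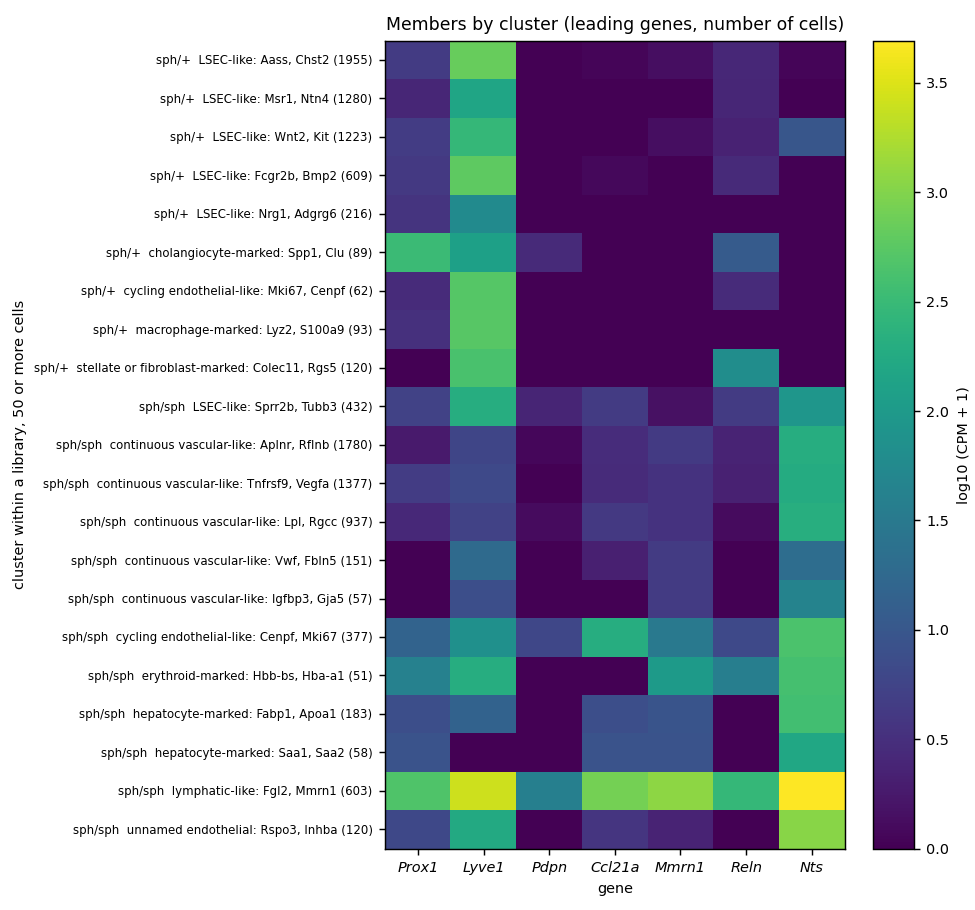
Level of each member (columns) as log10 of CPM with 1 added, in each cluster of at least 50 cells within a library (rows, with leading genes and number of cells). Lyve1 is bright through the sph/+ rows, the 603 lymphatic-like sph/sph cells are bright for every member, with Pdpn the dimmest at 38.4 CPM, and Nts is bright in most sph/sph rows.

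The few sph/+ cells with a lymphatic pattern can be read 1 by 1. The first gated cell had 3597 UMIs in all, with 5 Prox1, 16 Lyve1, 1 Pdpn, 37 Ccl21a, 25 Mmrn1 and 6 Reln UMIs. The second, of 5497 UMIs, had 1 Prox1, 30 Lyve1, 2 Pdpn, 112 Ccl21a, 12 Mmrn1 and 6 Reln UMIs. The third, of 5144 UMIs, had 5 Prox1, 11 Lyve1, 2 Pdpn, 9 Ccl21a, 40 Mmrn1 and 8 Reln UMIs. These 3 cells carried every member except Nts, which had 0 UMIs in each. The fourth gated cell, the LSEC-like one of 6004 UMIs, had 2 Prox1, 10 Lyve1, 2 Mmrn1 and 1 Reln UMIs and none of the rest. A further 2 sph/+ cells of the lymphatic-like cluster lay outside the gate, 1 with no member UMI and 1 with at most 3 UMIs of any member. Summed over the 4 gated sph/+ cells, Nts had 0 UMIs, which allows up to 148 CPM, and their levels rest on few cells of 1 mouse.

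In the 503 gated sph/sph cells all 7 members were present, in unequal shares of cells. Prox1, the identity factor, stood at 481 CPM (463 to 499.8) and had a UMI in 95.8% of cells. Nts stood at 5009.9 CPM (4951 to 5070) with a UMI in 97.8% of cells (96.1 to 98.9), a median of 33 UMIs and a highest count of 388. Reln stood at 309 CPM (295 to 325) in 85.1% of cells. The chemokine and the glycoprotein were found in a minority of the same cells: Ccl21a had 925 CPM (899.8 to 951) but a UMI in only 25.05% of cells (21.3 to 29.1), with up to 287 in 1 cell, and Pdpn had 28.3 CPM (24.0 to 33.1) in 15.1% of cells (12.1 to 18.5). Lyve1 at 2889.6 CPM and Mmrn1 at 1249 CPM define the gate and are given as a description only. At 2000 UMIs per cell the shares were 58.0% for Prox1, 91.8% for Nts, 42.2% for Reln, 20.9% for Ccl21a and 5.18% for Pdpn. So the shares for Prox1, Reln and Pdpn fell steeply with depth and those for Nts and Ccl21a little. In the hepatocyte-marked sph/sph cells, which had a median of 3300 UMIs, Prox1 had a UMI in 2.49% of cells. Ccl21a had one in 1.24%, Nts in 13.7%, and Reln and Pdpn in none of 241. These cells are no blank, since their larger cluster carried all 13 pan-endothelial markers. As deposited, 86.1% of gated sph/sph cells carried 3 or more of the 5 members outside the gate rule, against 0 of 4302 continuous vascular-like sph/sph cells, and 33.1% did at equal depth.

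**Figure D3:**
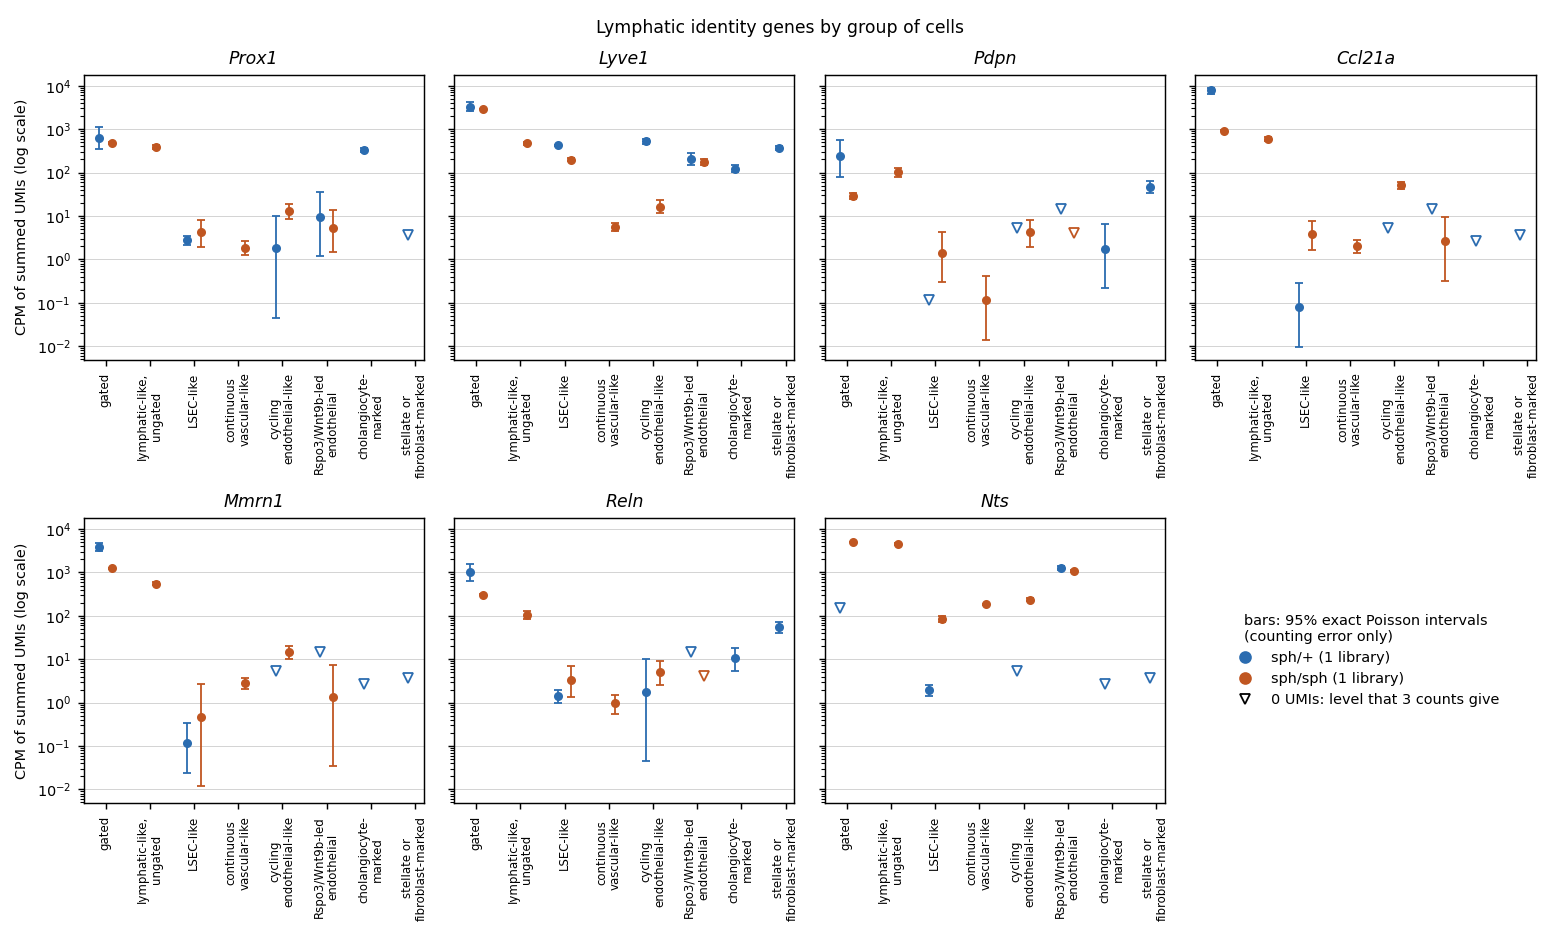
Level of each member in CPM (log axis) by group of cells in sph/+ (blue) and sph/sph (orange), with 95% exact Poisson intervals, for groups of at least 4 cells. Open triangles mark groups with 0 UMIs at the level that 3 counts would give, as for Nts in the gated sph/+ cells (148 CPM) beside 5009.9 CPM in the gated sph/sph cells.

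Set side by side, the gated cells of both libraries differed most in Nts, Ccl21a and Pdpn. Prox1 was at 642 CPM (342 to 1098) in sph/+ against 481 CPM, a ratio of 1.34 whose interval (0.710 to 2.29) includes 1. Ccl21a was at 7806 CPM (6636 to 9122) in sph/+, 8.44-fold higher (7.16 to 9.89), and Pdpn at 247 CPM (80.2 to 576), 8.73-fold higher (2.80 to 20.8). Reln was 3.35-fold higher in sph/+ (2.07 to 5.14). In the opposite direction Nts was at least 33.8-fold higher in sph/sph, taking the 0 of the sph/+ group as 3 counts. Lyve1 at 3309.9 against 2889.6 CPM and Mmrn1 at 3903 against 1249 CPM are set by the gate, whose fixed UMI counts ask for a higher level in the shallower sph/+ cells (median 5320.5 against 10562 UMIs), and are not compared. The counting intervals leave out the spread between cells, which was wide in sph/+, with Ccl21a at 0, 9, 37 and 112 UMIs in the 4 cells. The other copy of the same 4 cells gave 6718 CPM for Ccl21a, 462 CPM for Pdpn and again 0 Nts UMIs.

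Just outside the gate, 105 ungated sph/sph cells of the lymphatic-like cluster, which was named by the members, also carried them. Prox1 was at 397 CPM (356 to 441) and Nts at 4518 CPM (4377 to 4662). Ccl21a was at 594 CPM, but 308 of its 512 UMIs were in 1 cell. Reln was lower than in gated cells, at 106 CPM (85.1 to 130), and Pdpn higher, at 101 CPM (80.9 to 125) against 28.3 CPM. Lyve1, which the gate selects on, was at 470 CPM. At the border, 18 sph/sph cells with 5 to 6 Lyve1 UMIs and 20 cells with 3 to 4, all with at least 2 Mmrn1 UMIs, had 441 and 409 CPM of Prox1, 3454 and 4730 CPM of Nts, 56.0 and 59.3 CPM of Pdpn, and 2627 and 415 CPM of Ccl21a. On the Mmrn1 side, 18 cells with 2 and 13 with 1 Mmrn1 UMI had 472 and 325 CPM of Prox1, 887 and 0 CPM of Ccl21a, and 7.27 and 163 CPM of Pdpn. So Prox1 was within 1.5-fold across either border, while Ccl21a and Pdpn were uneven in these few cells. Cells with no Mmrn1 UMI but at least 5 Lyve1 UMIs differed: the 44 such sph/sph cells had 23.2 CPM of Prox1, and the 853 in sph/+ had 3.09 CPM.

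Outside the lymphatic-like cells, Nts was concentrated in 1 further cluster, which was its main site in sph/+. An endothelial cluster led by Rspo3, Inhba, Wnt9b, Cyp1b1, Fmo2 and Vwf stayed unnamed, since it met no full set of markers. Its Nts level was 1263 CPM (1114 to 1425) over 38 sph/+ cells and 1075 CPM (1002 to 1152) over 120 sph/sph cells. In sph/+ this cluster held 83.9% of the library's Nts UMIs, in 26.3% of its cells and with up to 85 UMIs in 1 cell. In sph/sph 57.5% of its cells had a UMI (48.1 to 66.5). Hepatocyte-marked cells, at 0 of 50 in the heterozygous library and 13.7% in the homozygous one, were lower in each. The other members did not accompany Nts there. Prox1 had 2 UMIs in the heterozygous and 4 in the homozygous cells, Ccl21a 0 and 2, Mmrn1 0 and 1, and Reln and Pdpn 0 in each. Lyve1 was at 208 CPM (151 to 280) and 176 CPM (147 to 209).

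In the continuous vascular-like sph/sph cells, the largest class of that library with 4302 ungated cells, 6 members were scarce. Lyve1 was at 5.65 CPM (4.60 to 6.88), Mmrn1 at 2.83 CPM, Ccl21a at 2.04 CPM, Prox1 at 1.87 CPM (1.28 to 2.62), Reln at 0.961 CPM and Pdpn at 0.113 CPM. Nts was higher, at 183 CPM (177 to 190), with a UMI in 15.1% of cells (14.1 to 16.2). That share is close to the 13.7% (at 339 CPM) of hepatocyte-marked sph/sph cells (9.62 to 18.7, median 3300 UMIs against 3715), and at 2000 UMIs per cell the shares were 11.5% and 11.9%. No expression of Nts is read from it. The hepatocyte-marked cells are themselves no clean reference, since the larger of their 2 clusters carried 12 of 15 continuous vascular markers. Nts was at 196, 188 and 204 CPM in the 3 largest continuous clusters but at 20.1 CPM (11.9 to 31.8) in the cluster led by Vwf and Fbln5, which was deeper. Per 100 Nts UMIs the continuous cells had 1.02 Prox1, 3.08 Lyve1 and 1.54 Mmrn1 UMIs, and the gated cells 9.60, 57.7 and 24.9. Whether free RNA contributed was not tested.

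The sph/sph class called LSEC-like held 434 ungated cells, of which 432 formed a cluster with 9 of 12 LSEC markers detected in at least 25% of cells. Its leading genes were Sprr2b, Tubb3 and Rgs2, and no LSEC marker was among its top 10, so it is another cluster than those that hold the heterozygous LSECs. Lyve1 was at 200 CPM (181 to 220) there, in 17.1% of cells (13.6 to 20.9) against 52.0% in the heterozygous LSECs. Prox1 was at 4.27 CPM (1.95 to 8.10) and Nts at 85.3 CPM (73.3 to 98.8). Cycling endothelial-like cells also differed between libraries in Lyve1. It was at 520.1 CPM (462 to 584) in the 63 sph/+ cells. In the 375 ungated sph/sph cells it was at 16.4 CPM (11.4 to 22.9). These cells fell mainly into different clusters. The cluster with 62 of the sph/+ cells had all 12 LSEC markers and 6 continuous vascular markers detected. The cluster with 377 sph/sph cells had 1 LSEC marker and 12 continuous vascular markers detected. The Lyve1 levels are therefore not compared within 1 matched cell type. The gate selects on Lyve1, and with gated cells counted the 377 sph/sph cells of the main cycling cluster had 70.8 CPM (60.1 to 82.9). In the 375 ungated cells, Ccl21a was at 50.7 CPM, with 72 of its 108 UMIs in 1 cell, and 5 of the cells carried 3 or more members outside the gate rule.

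Members also turned up in cells with markers of other types. In the 89 cholangiocyte-marked sph/+ cells Prox1 stood at 325 CPM (292 to 360) with a UMI in 91.0% of cells, and these cells held 80.6% of the Prox1 UMIs of the kept sph/+ cells. Lyve1 was at 123 CPM there, Reln at 10.6 CPM, Pdpn at 2 UMIs, and Mmrn1, Ccl21a and Nts at 0 UMIs. The 130 stellate or fibroblast-marked sph/+ cells held 82.6% of the Pdpn and 38.3% of the Reln UMIs of the kept sph/+ cells, in different clusters. All 38 Pdpn UMIs were in the 10 cells of a cluster led by Slpi, Igfbp6 and C3, which also had 5 of 5 mesothelial markers detected, at 301 CPM (213 to 414) in 9 of them. All 44 Reln UMIs were in the other 120 cells, led by Colec11 and Rgs5, at 64.7 CPM (47.0 to 86.8). Prox1, Ccl21a, Mmrn1 and Nts had 0 UMIs in them. The cholangiocyte-marked cells and the larger stellate or fibroblast-marked cluster also carried 12 of 12 LSEC markers. The smaller cluster, which held the Pdpn UMIs, carried 11 of 12 and all 13 pan-endothelial markers. Whether any of these cells are mixtures with LSEC RNA was not tested. Lyve1 in them (429 CPM in the larger stellate or fibroblast-marked cluster) is not read as their own.

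Summed over all endothelial-like cells, the homozygous library was past 2-fold above the heterozygous one for 5 of the 6 measured members and past 2-fold below it for 0, where measured means 20 CPM in either library. Over all 7476 measured genes 11.1% were past 2-fold higher and 10.8% lower. The 5 called members were below 20 CPM in sph/+, so once measured they could not have been called lower. Nts stood at 1239 CPM (1226 to 1252) against 11.9 CPM (10.6 to 13.3), a ratio of 104 (93.3 to 117). Mmrn1 was at 254 against 3.25 CPM, Ccl21a at 197 against 6.11 CPM, Prox1 at 105 against 3.32 CPM and Reln at 62.5 against 2.25 CPM. Pdpn did not reach the level of measurement, at 8.80 CPM against 0.229 CPM. The median log2 ratio of the 6 was 4.71, against -0.08 for all genes. Lyve1 was the exception, at 581 CPM (572 to 589) against 429 CPM (421 to 437), a log2 ratio of 0.44. Its order turned with every cell weighted equally, to a log2 ratio of -0.50, and 13.2% of sph/sph against 52.1% of sph/+ cells had a UMI. The cells that carried it were different: 90.4% of the sph/+ UMIs were in LSEC-like cells and 93.0% of the sph/sph UMIs in gated cells. Leaving out the gated cells removed 503 sph/sph and 4 sph/+ cells, chosen by Lyve1 and Mmrn1. The values of these genes are then shaped by the gate itself. Without the gated cells Lyve1 was lower in sph/sph, at 46.4 CPM against 427 CPM. Nts, Ccl21a and Mmrn1 were the measured members past 2-fold higher, with log2 ratios of 4.83, 4.77 and 4.34. Prox1 (2.28), Pdpn (2.35) and Reln (1.37) were also past 2-fold but below 20 CPM. The 105 ungated lymphatic-like cells held 342 of the 415 Prox1, 478 of the 561 Mmrn1 and 512 of the 666 Ccl21a UMIs of the ungated endothelial-like sph/sph cells. In such sums, more cells of a type and more RNA per cell cannot be told apart. Gimap5 itself, the mutated gene, was at 105 CPM in both libraries, and since the sphinx allele is a missense change its level does not check the labels.

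Within sph/sph, gated cells were compared with the 5336 other endothelial-like cells. All 5 members outside the gate rule were at least 2-fold higher, where 9.02% of 7314 measured genes were higher and 13.7% lower. Prox1 (17.6 CPM), Reln (5.35 CPM) and Pdpn (4.29 CPM) were below 20 CPM in the other cells. Once measured, these 3 could not have been called lower. Reln was 57.8-fold higher (48.2 to 69.8), Ccl21a 32.7-fold (30.15 to 35.5), Prox1 27.3-fold (24.6 to 30.3), Nts 13.7-fold (13.35 to 14.01) and Pdpn 6.59-fold (5.10 to 8.56). The comparison cells include the 105 ungated lymphatic-like cells, and without them the log2 ratio of Prox1 went from 4.69 to 6.84 and that of Pdpn from 2.47 to 4.18. The gene lists below were drawn up with earlier results of these data known, and their counts are a description. List genes below 20 CPM in the other cells, such as Tbx1, Foxc2 and Vldlr, likewise could not have been called lower.

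Of 12 transcription factors of lymphatic development, all were measured, 7 were at least 2-fold higher in gated sph/sph cells and 0 lower, with a median log2 ratio of 1.32 against -0.09 for all genes. Tbx1, a T-box factor, was at 93.5 CPM against 6.501 CPM, and Foxc2, the forkhead factor of lymphatic valves, at 65.9 CPM against 4.72 CPM. Nr2f2, which encodes the partner of Prox1 known as COUP-TFII, was at 476 CPM against 87.1 CPM, 5.47-fold higher (5.16 to 5.79). Sox18, which switches on Prox1 in the embryo, was at 150.2 CPM against 194 CPM and was not past 2-fold. In the 4 gated sph/+ cells Nr2f2 had 10 UMIs, 494 CPM, and Tbx1 had 4. Over all endothelial-like cells Nr2f2 was in the opposite order between the libraries, at 713 CPM in the heterozygous and 160.2 CPM in the homozygous one.

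Lymphatic growth signalling was mixed. Of its 18 genes 13 were measured, 2 were higher and 1 lower. Flt4, the receptor for VEGF-C, was at 822 CPM against 119 CPM, and Angpt2, the ligand of the receptor Tie2, at 426 CPM against 148 CPM. Kdr, the main receptor for VEGF-A, was 2.71-fold lower in gated cells (2.61 to 2.81), at 588 CPM against 1592 CPM. Itga9, an integrin subunit of lymphatic valves, was at 131 CPM against 77.5 CPM. Between the libraries Flt4 was in the opposite order, at 805 CPM over the heterozygous endothelial-like cells against 251 CPM over the homozygous ones.

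Of 22 other genes often used as lymphatic markers 20 were measured, 13 were higher and 1 lower, with a median log2 ratio of 2.28. Fgl2, a secreted fibrinogen-like protein, was at 1471 CPM against 29.0 CPM. Thy1, a surface glycoprotein, was at 267 CPM against 10.3 CPM, and Cp, which encodes ceruloplasmin, at 410 CPM against 22.8 CPM. Stab1, a scavenger receptor that LSECs share with lymphatic vessels, was 4.003-fold higher in gated cells (3.88 to 4.13), while Emilin1 was 3.73-fold lower (3.27 to 4.27). Thus genes of several functions were high in the gated cells, and not every listed marker was.

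Few partners of the members were measured in the sorted cells. Of 16 ligand and receptor genes 5 were measured, 3 higher and 1 lower. Vldlr, a receptor for reelin, was at 111 CPM in gated cells and 2.34 CPM in the others, 47.4-fold higher (35.9 to 63.7), whereas Lrp8, the other receptor for reelin, stayed below 20 CPM at 4.96 and 1.66 CPM. Itga3, a subunit of an integrin that binds reelin, was 3.02-fold higher, and Stab2, a hyaluronan receptor, was at 70.2 CPM against 30.1 CPM. Sort1, which binds neurotensin, was lower at 6.24 CPM against 24.9 CPM. The neurotensin receptors Ntsr1 and Ntsr2 and the Ccl21a receptor Ccr7 had 0 UMIs in the endothelial-like cells of both libraries. Clec1b, which encodes the Pdpn receptor and is also an LSEC gene, was at 342 CPM over the heterozygous endothelial-like cells against 11.5 CPM over the homozygous ones.

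**Figure D4:**
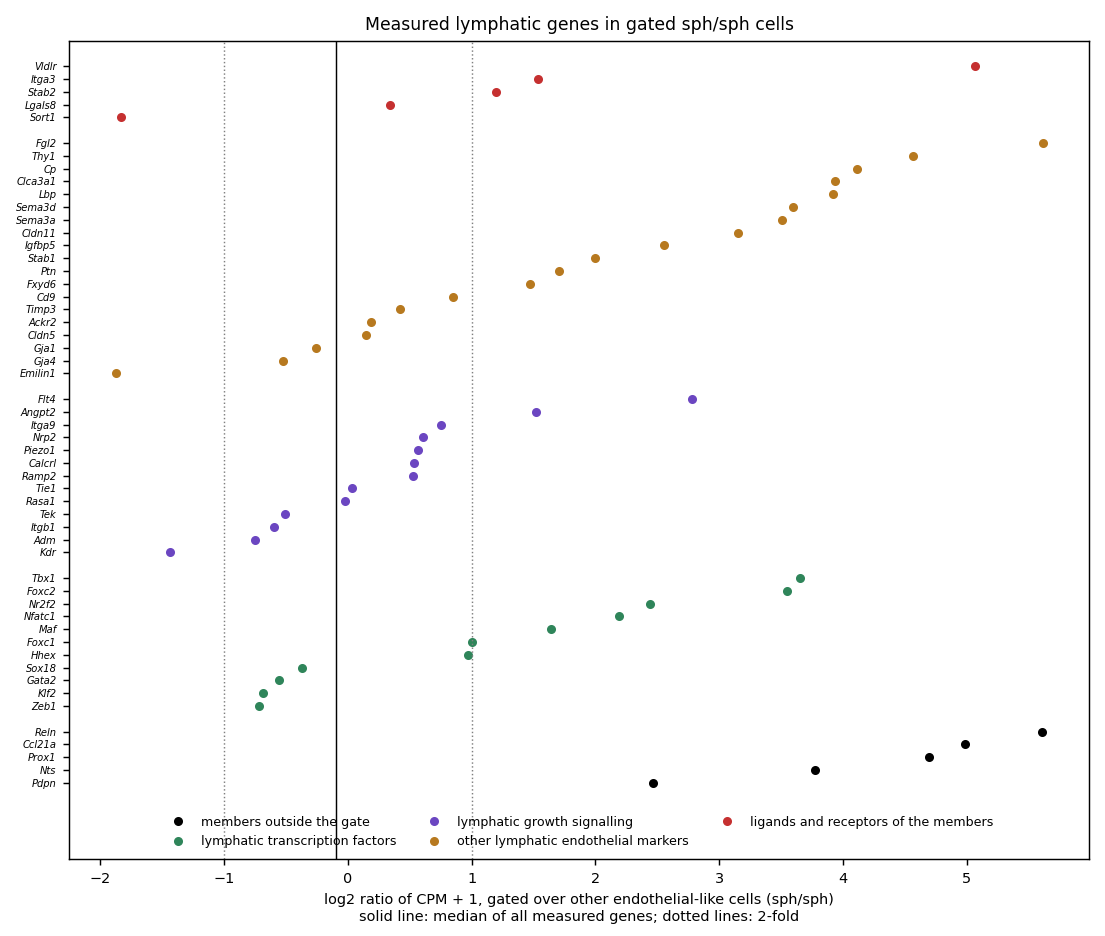
Log2 ratio of CPM (1 added) in gated over other endothelial-like sph/sph cells for the 5 members outside the gate rule and for the measured genes of the 4 lists that are reported here, 1 point per gene, with the median of all genes (-0.09) as a solid line and 2-fold as dotted lines. The 5 members lie between 2.47 and 5.61, and of the 50 measured list genes, drawn or not, 25 were past 2-fold higher and 3 past 2-fold lower.

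The genes with the highest ratios in gated sph/sph cells outside the members were H19, an imprinted non-coding RNA, at 1324 CPM against 22.2 CPM, and Scn3a, a sodium channel subunit, at 252 CPM against 3.48 CPM. Fgl2 came next, followed by Hsd11b1, which regenerates active glucocorticoid, at 112 CPM against 1.95 CPM, and Nrcam, a neural adhesion molecule, at 107 CPM against 1.997 CPM. Gap43, a growth-cone protein, was at 213 CPM against 5.27 CPM, Ston2, an endocytic adaptor, at 99.5 CPM against 2.17 CPM, and the matrix protein Fn1 at 890.4 CPM against 28.8 CPM. Vldlr, Susd4 and Slc38a4 were also among them, the last at 68.5 CPM against 1.44 CPM. In the 4 gated sph/+ cells H19 had 8 UMIs (395 CPM), Fgl2 70 (3458 CPM) and Scn3a 3, while Fn1 and Vldlr had 0. Among the lowest ratios were those of 4 of the 15 continuous vascular markers. That list was not uniform: Plvap (680 against 145 CPM), Cldn5 (1199 against 1083 CPM) and Lpl (411 against 394 CPM) were higher in gated cells, and the rest lower. Aplnr and its ligand Apln were 82.8-fold and 65.8-fold lower, Ly6a 56.3-fold and Ly6c1 54.5-fold, with the ubiquitin-like gene Ubd at 62.0-fold and the chemokine gene Cxcl12 at 56.8-fold beside them. Gated cells also had less of Pecam1 (576 against 1162 CPM), Cdh5 (475 against 1414 CPM) and most others of the 13 pan-endothelial markers. Ramp2 was higher (1119 against 778 CPM), and Egfl7 (2578 against 2559 CPM) and Tie1 (333 against 326 CPM) were nearly level.

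Ccl21a split the gated sph/sph cells. It had 0 UMIs in 377 of them, 1 to 9 in 49, and 10 or more in 77, and those 77 cells (15.3%) held 96.6% of the Ccl21a UMIs. These bands were chosen after the values were seen. Depth did not rise with Ccl21a, since the median was 10884 UMIs in the cells without it and 9795 in the cells with 10 or more. Prox1 was at 456 CPM (436 to 477) without Ccl21a and 613 CPM (560.4 to 670.2) with 10 or more, Mmrn1 at 1152 and 1553 CPM, and Reln at 301 and 344 CPM, each within 1.5-fold. Pdpn was 6.07-fold higher in the Ccl21a-rich cells (4.29 to 8.61), at 93.7 CPM against 15.4 CPM. Nts went the other way, at 3150 CPM (3028 to 3275) against 5461 CPM (5390 to 5533), although it was not absent from the Ccl21a-rich cells.

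**Figure D5:**
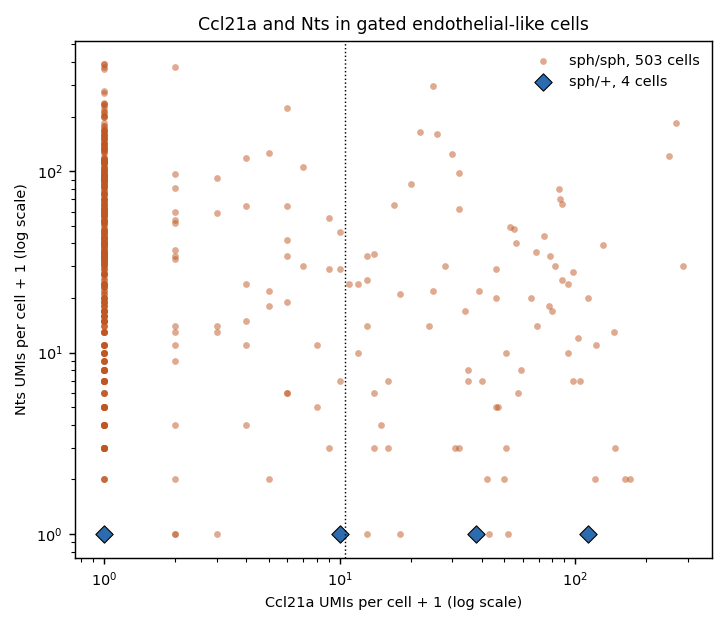
Ccl21a (horizontal) and Nts (vertical) UMIs per gated endothelial-like cell, 1 added, on log axes, for 503 sph/sph cells (orange) and 4 sph/+ cells (blue diamonds), with the dotted line at the bound of 10 Ccl21a UMIs. Most sph/sph cells stack at 0 Ccl21a with Nts up to 388 UMIs, and all 4 sph/+ cells lie at 0 Nts.

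Over the 21 clusters of at least 50 cells within a library, the members' log2 levels were only partly parallel. Clusters of 1 library share its depth and free RNA, so these correlations are a description. The closest pairs of members were Pdpn and Ccl21a (Pearson r = 0.857), Ccl21a and Mmrn1 (0.782) and Mmrn1 and Nts (0.772). Lyve1 had its highest value with Reln (0.547), followed by Pdpn (0.350) and Prox1 (0.314), and its lowest with Ccl21a (0.0346), Mmrn1 (0.0192) and Nts (-0.332). The genes most like each member were Thsd4, Dtx1 and Sema4d for Prox1 (0.919 to 0.894), Adgrg3, Tgfa and Gm30648 for Lyve1, and Serpine2, Klrb1f and Sh3gl3 for Pdpn. They were Ccl7, Klrb1f and Sh3gl3 for Ccl21a, Fgl2, H19 and Lrrn4cl for Mmrn1, Dcn, Itm2a and Postn for Reln (0.830 to 0.8002), and Crem and Ttc9 for Nts (each 0.891).

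Markers of other cell types were checked in the gated cells. All 13 pan-endothelial markers had UMIs in the gated cells of both libraries. The summed LSEC markers stood at 7806 CPM in the 4 gated sph/+ cells and 22006 CPM in other sph/+ endothelial-like cells, and at 1977 CPM against 760 CPM in sph/sph, where Stab1 alone gave 1454 CPM in gated cells. That list split in sph/sph: Maf (220 against 69.9 CPM), Gpr182, Mrc1 and Stab2 were also higher in gated cells. The rest of the list was lower, such as Clec4g (4.96 against 70.0 CPM) and Bmp2 (3.12 against 54.3 CPM). Continuous vascular markers summed to 2569 and 4661 CPM in sph/+ and to 7499 and 23304 CPM in sph/sph. Of the non-endothelial types, all 6 T or NK cell markers were at 0 in gated cells of both libraries, and the 8 macrophage markers summed to 2.39 CPM in gated sph/sph cells with Clec4f and Csf1r at 0. The 5 cholangiocyte markers summed to 0.735 CPM in gated sph/sph cells, with Epcam, Krt7, Krt19 and Spp1 at 0, beside Prox1 at 481 CPM. They summed to 4.42 CPM in the other sph/sph endothelial-like cells, so low levels of these types were not particular to gated cells. Of the 8 stellate or fibroblast markers only Dcn was high, at 1105 CPM in gated sph/sph cells and 0 in those of sph/+, while Col1a1, Col3a1, Lrat and Lum were at 0. Of the 5 mesothelial markers Gpm6a was high in gated cells, at 213 CPM in 80.3% of sph/sph cells (10.2 CPM in the other endothelial-like cells) and 346 CPM in the 4 sph/+ cells (6.27 CPM in the others), while Msln and Lrrn4 were at 0 in both. Msln was at 0 in the other endothelial-like cells too. Wt1 was lower in gated sph/sph cells, at 3.49 CPM against 159 CPM in the others. The part of Dcn and Gpm6a in the results was not tested. Erythroid markers summed to 533 CPM in gated sph/sph cells and 293 CPM in the other endothelial-like cells. The shares of cells did not follow: Hbb-bs, the highest of them, had a UMI in 4.57% of gated and 5.10% of other cells. Of the 5 markers only Alas2 had a larger share in gated cells. The part of erythroid markers in the results was not tested. The 8 hepatocyte markers summed to 51.6 CPM against 168 CPM in the same groups. Alb was at 14.7 CPM against 77.0 CPM, while Trf alone was higher in gated cells, at 20.6 CPM against 15.8 CPM. Ptprc, the gene of the CD45 used to sort leukocytes out, had 0 UMIs against 8.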

How the data were processed

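The deposited values are raw UMI counts per gene and barcode, from 10x Genomics 3' v3 libraries processed with Cell Ranger 3.0 against mm10, per the submitters' processing notes; the deposited matrix header names software 3.1.0. No normalization was applied by the authors, per the file headers and values, and the annotation release is not given in the sources used here. Barcode sequences occurred with suffixes 1 and 2 at near-equal counts, so the suffix 2 copy was used and the other was an alternative chosen after seeing the data. 17 sequences occurred in both libraries.

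Barcodes were kept with at least 500 genes, 1000 UMIs and at most 15% mitochondrial UMIs (6167 and 6599 passed). Scrublet in scanpy 1.11.5 marked 0.0324% and 0.0303% on its automatic threshold, so the highest scores at the expected rate (5.38% and 6.92%) were removed, 383 and 464 barcodes with ties. Both libraries were clustered together without integration (2000 variable genes without the 7 members, 30 principal components, 15 neighbours, leidenalg 0.10.2 at resolution 1.0), and clusters were named from marker lists. The lymphatic marker list was the 7 members. The marker numbers needed for a name followed earlier results, and a condition parting lymphatic-like from cycling clusters was added after clusters were seen. LSEC-like clusters needed 9 of 12 LSEC markers in at least 25% of cells. Classes led by another type that carry endothelial markers are called marked.

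Counts were summed per group and scaled to CPM, and ratios were taken after 1 CPM was added, except that folds with intervals use the counts alone. Genes at 20 CPM on either side were measured, and 2-fold was the bound for counting. Single cells of 1 mouse are not replicates, so there is no test. The 7 members and the gene lists were chosen with earlier results of these data known. The text names the members and fixed controls, the 12 highest and 6 lowest genes in gated against other sph/sph cells, up to 4 genes per list and the 3 genes most like each member; Sox18, Emilin1, Stab1 (as a list gene), Clec1b, Lrp8, Ntsr1, Ntsr2 and Ccr7 were named for their role or after their values were seen. Some genes that the rule names are not reported here. The comparison was checked on simulated counts. Alternatives covered doublets, filters, resolution, floor, pseudocount, cell weighting, gate bounds and thinning.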

Additional observations from a re-analysis of the deposited data

Results flagged for a closer look

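The 31 sph/sph barcodes that met the Lyve1 and Mmrn1 gate but failed the cell filter were not used in any comparison. They were 31 of 2048 failing barcodes (1.51%, 1.03 to 2.14), against 0 of 560 in sph/+. Another 41 gated sph/sph barcodes were among the 464 marked as doublets (8.84%, 6.42 to 11.8), close to the 8.26% of kept cells. Prox1 at 325 CPM in the cholangiocyte-marked sph/+ cells is a signal of a member outside the endothelial classes, in the library where the gated cells number 4.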

How the results depend on the processing

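No paired analysis was possible because each genotype is 1 library. The 5 members outside the gate rule were all at least 2-fold higher in gated sph/sph cells under the alternatives run, except that with a floor of 50 CPM 4 were measured and higher. Without the gated barcodes 3 members were past 2-fold above sph/+ in the sph/sph endothelial-like cells and 1 below. Fewer members then reached 20 CPM, and Lyve1, on which the gate selects, moved from a log2 ratio of 0.44 to -3.17. With cells weighted equally Lyve1 was at -0.50, so its order between the libraries depends on the weighting. With no floor 1878 genes were past 2-fold higher between libraries, and in gated cells 1293 were higher and 1979 lower, with 7 list genes lower; with a floor of 50 CPM the counts were 518 higher between libraries, and 436 higher and 617 lower in gated cells, because the floor sets how many genes are counted. Thinned to 2000 UMIs, 216 sph/sph cells met the gate. Over every deposited barcode, unfiltered and with most cells counted 2 times, 8 sph/+ and 1159 sph/sph barcodes met it, and with both copies of the kept cells 8 and 1015. The first copy alone, added after seeing the data, gave 4 and 508. Between libraries the log2 ratio ran from 2.28 to 4.76 for Prox1, 4.83 to 6.75 for Nts and 1.40 to 2.999 for Pdpn; gated over other cells it ran from 2.42 to 6.89 for Ccl21a and 2.01 to 4.58 for Nts. With 4 gated sph/+ cells, depth limits every level in them.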

Other observations

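Within the gated sph/sph cells, other genes of the lymphatic lists parted with Ccl21a. These genes were chosen after their values were seen. Cells with 10 or more Ccl21a UMIs had more Fxyd6 (242 against 65.9 CPM in cells with none), Nrp2, a co-receptor for VEGF-C (1173 against 390.2 CPM), Gja4 (159 against 62.0 CPM), Cldn5, a tight junction protein (2125 against 950.1 CPM) and the chemokine scavenger Ackr2 (219 against 99.9 CPM). They had less Igfbp5 (214 against 905 CPM), Angpt2 (226 against 484 CPM) and Adm (27.5 against 131 CPM), and the growth factor gene Ptn had 4 UMIs in them against 184. Stab1, Sox18 and Zeb1 were at nearly the same level in both (1443 against 1456 CPM, 152 against 150.3 CPM, and 122 against 125 CPM).

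The ungated lymphatic-like sph/sph cells, which had more Pdpn than the gated cells, also had more Dcn, at 2994 CPM against 1105 CPM.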
